A study of Saccharomyces cerevisiae with 24 samples.

Results

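The window from nt 201 to 649 of the averaged ribosome profile, with nt 0 at the A of the start codon, covers codons 68 to 217 of the reading frame and follows the broad peak near the start. It holds 449 of the 1050 positions of each profile, which runs from nt -50 to 999, and was taken by position alone in all 23 libraries that have a profile. The study sequenced ribosome footprints, the mRNA fragments that ribosomes shield from RNase, from Saccharomyces cerevisiae strain BY4741 to learn how cycloheximide in the medium shapes the profile under stress. Occupancy is footprint coverage averaged over genes of 1 exon and more than 1000 nt, and divided by its mean over a 300-nt span further downstream, so that a value of 1 is the level of that span.

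The unstressed cells grew in YPD at 30°C and the oxidative stress cells had 0.2 mM hydrogen peroxide for 30 min, each without cycloheximide in the medium and with x1/64, x1/16, x1/4, x1, x8 and x100 of it, where x1 is 100 μg/ml. Heat-shocked cells (42°C for 20 min) were profiled without the drug and at x1. They were filtered, moved to a new flask of preheated YPD and filtered again at harvest. The methods give no such transfer for the unstressed and peroxide-treated cells they are compared with, so heat and transfer cannot be told apart. The starvation experiment had complete SD medium, SD without amino acids and SD without amino acids but with His, Met and Leu, each with no drug in the medium. The starved cells were grown in complete SD, filtered and moved for 20 min to pre-warmed medium. That medium held only a nitrogen source (YNB) and glucose, or these with His, Met and Leu. The study's supplement also names uracil as added in some cases, and the sources do not say in which. In the remaining libraries, unstressed cells without drug were lysed with edeine or with aurintricarboxylic acid in the buffer. Every lysis buffer held 100 μg/ml cycloheximide, so that "no drug" refers to the medium only. The x100 cells were filtered before they met the drug, whereas at the other doses the drug went into the culture before filtration. The x8 stock was made in DMSO and that of the low doses in water, so solvent and dose cannot be told apart at x8. BY4741 lacks HIS3, LEU2, MET17 and URA3 and cannot make His, Leu, Met or uracil, so SD without amino acids withholds nutrients the strain requires. The 40S subunit sample was not analysed here.

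A ribosome that elongates at an even rate along every gene leaves an even footprint density. Density falls along the averaged profile where ribosomes spend longer in the early codons, drop off, or are caught by an elongation inhibitor while still close to the start. Cycloheximide binds the E site of the large subunit and blocks translocation, and in a living culture it takes effect only as it enters the cells. The study used edeine and aurintricarboxylic acid as inhibitors of initiation. It describes edeine as blocking the joining of the subunits. Aurintricarboxylic acid is described as acting on contacts of proteins with RNA in general, and it also inhibits RNase digestion.

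Only the x100 condition had replicates, 2 libraries per stress, and every other condition was 1 library. The study's methods describe the x100 replicates as independent repeats of the treatment. Their pooled SD on the log2 scale was 0.097 for the window mean, and 2 SDs correspond to a 1.14-fold difference. Single libraries that differ by more than 2 SDs are said to exceed the replicate spread, a rough guide that rests on 2 pairs and is no test. The SD is that of 1 library, and a difference between 2 libraries varies more, so the limit is lenient. The window ratios that passed it most narrowly were oxidative x1/64 over no drug (2.08 SDs) and edeine over unstressed (2.29 SDs). SD without amino acids over that with His, Met and Leu (2.32 SDs) and unstressed x100 replicate 1 over no drug (2.83 SDs) came next. Recovered depths ran from 1.91 to 27.6 M reads (M, mega) with a median of 6.90 M, and the shallowest were SD without amino acids (1.91), x1/64 in unstressed cells (2.00) and under oxidative stress (2.44), and edeine (2.51). Between 720 and 1812 genes per library passed 1000 nt and 30 RPKM, and the 10 most abundant held 12.2 to 38.4% of their RPKM. These rebuilt lists need not be the genes that the authors averaged. The study's methods give the cutoff in rpkm and its supplement in rpk, and the supplement counts more genes than any list here. The coding genes with the highest median RPKM among the long ones were the glycolytic genes PGK1, FBA1 and CDC19, the alcohol dehydrogenase gene ADH1 and ILV5, which serves branched-chain amino acid synthesis. The labels matched the levels of HSP26, a small heat shock protein (23017 RPKM or more in both heat shock libraries against 76.9 or less in all unstressed YPD libraries), of the thioredoxin gene TRX2 (10546 RPKM or more under oxidative stress against 1020 or less in the unstressed dose series), and of GCN4, the starvation-induced transcription factor, at 4065 RPKM without amino acids, 973 with His, Met and Leu and 37.1 in complete SD. LEU2, MET17 and URA3 were listed at 0 in every library.

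All 10327 values in the window, 449 positions in 23 libraries, lay above 1, from 1.02 to 3.09. The window mean ran from 1.16 in unstressed cells without drug to 1.74 under oxidative stress at x1/16, with a median of 1.35 over the libraries. Occupancy fell along the window in every library, by 0.071 to 0.375 per 100 nt in a straight-line fit. It had not levelled off at the window's end: the 300-nt span that sets the level of 1 averaged 1.00 to 1.05 in its upstream part and 0.948 to 0.9895 in its downstream part, and the 50 nt after it averaged 0.911 to 0.995. Split into an upstream segment (nt 201 to 350), a middle segment (nt 351 to 500) and a downstream segment (nt 501 to 649), the window held 50.9 to 65.1% of its area above 1 in the upstream segment, 24.9 to 32.9% in the middle and 9.56 to 16.4% in the downstream one. The area above 1 is called the excess below.

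The dose series asked how the amount of cycloheximide in the medium changes the profile. In unstressed cells the window was lowest without drug, highest at x1/16, and lower from x1 on than at x1/64, x1/16 or x1/4. The window mean was 1.16 without drug, 1.49 for x1/64, 1.65 for x1/16, 1.47 for x1/4, 1.26 for x1, 1.29 for x8, and 1.40 and 1.27 in the x100 replicates. The dose of x1/16 was thus the highest and stood 1.42-fold over no drug. At single positions x1/16 was the highest dose at 371 of the 449 and x1/64 at the other 78, and no drug was the lowest at 447. Neighbouring positions share footprints, so counts of positions here and below are not counts of replicates. Except for the counts of positions higher under stress at every dose, they were taken in the window alone. Their share over the whole profile was not computed, so they tell nothing particular to the window. The rise over no drug exceeded the replicate spread at x1/64 (1.28-fold), x1/16 and x1/4 (1.27-fold), but not at x1 (1.08-fold) or x8 (1.11-fold). The x100 replicates fell on both sides of the limit, at 1.21-fold and 1.09-fold. No drug, x1/16, x1/4, x1 and x8 were made with primer set 1, x1/64 and x100 with primer set 2.

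Under oxidative stress the window was also lowest without drug and highest at x1/16. The window mean was 1.27 without drug, 1.46 for x1/64, 1.74 for x1/16, 1.67 for x1/4, 1.35 for x1, 1.40 for x8, and 1.40 and 1.29 in the x100 replicates. The dose of x1/16 was the highest at 366 positions and x1/4 at 83, and no drug was the lowest at 439. Over no drug the window mean was 1.15-fold at x1/64, 1.37-fold at x1/16 and 1.32-fold at x1/4, each beyond the replicate spread. It was 1.06-fold at x1, 1.104-fold at x8, and 1.104-fold and 1.02-fold at x100, all within it. The oxidative stress libraries without drug and those of x1/16 and x1/4 had primer set 1 and the others primer set 2.

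The part of the window where the drug's rise sat differed between doses. The downstream segment adjoins the span that each profile was divided by, so ratios there, here and below, are drawn toward 1 by the scaling. A smaller ratio downstream than upstream is thus in part built in, and the segments are best compared between doses. In unstressed cells the upstream segment was 1.68-fold over no drug at x1/16 and the downstream segment 1.17-fold. At x1/64 these were 1.38-fold and 1.16-fold, so that the dose with the smaller rise upstream reached nearly the same rise downstream. At x1/4 they were 1.48-fold and 1.08-fold. The 30-nt mean around nt 250 was 2.28 at x1/16, 2.01 at x1/4 and 1.82 at x1/64, whereas around nt 550 it was 1.27, 1.17 and 1.26 in the same order. The x1/64 line thus crossed the x1/4 line within the window. Under oxidative stress the same means were 2.42, 2.49 and 1.80 around nt 250 and 1.31, 1.22 and 1.23 around nt 550, and the x1/4 line fell from the top of the 3 to the level of x1/64. The unstressed x1/64 library is among the shallowest, and its profile had a local bump close to nt 500 (1.45, against 1.44 around nt 450 and 1.26 around nt 550).

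The slope was steepest at the low doses. Occupancy fell by 0.071 per 100 nt in unstressed cells without drug, by 0.180 for x1/64, by 0.301 for x1/16, by 0.252 for x1/4, by 0.0996 for x1, by 0.117 for x8, and by 0.178 and 0.128 for x100. Under oxidative stress the falls were 0.119, 0.184, 0.342, 0.375, 0.158, 0.178, and 0.179 and 0.146 in the same order. The steepest slope was at x1/16 in unstressed cells and at x1/4 under oxidative stress. The pooled SD of the x100 replicates was 0.030 per 100 nt, so the slopes at x1/16 and x1/4 stood over 2 SDs away from those at x1 and x8 in both series, while x1 and x8 did not differ beyond their spread.

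The position where a running mean over 30 nt first fell under 1.25 gives the reach of the slope in another way. In unstressed cells it was nt 294 without drug, 557 for x1/64, 581 for x1/16, 497 for x1/4, 393 for x1, 452 for x8, and 503 and 419 for x100. Under oxidative stress it was nt 412 without drug, 533, 597, 525, 463 and 504 at the rising doses up to x8, and 493 and 399 at x100. The x1/16 slope reached furthest in both series, and the x100 replicates were 84 and 94 nt apart.

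**Figure D1:**
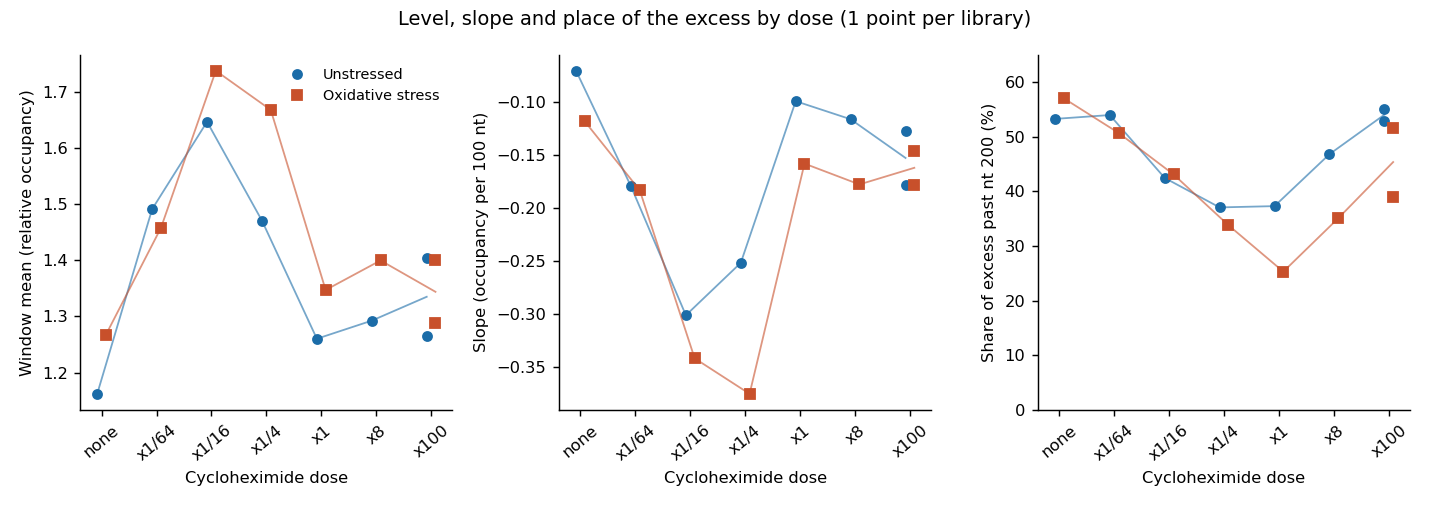
Window mean, slope per 100 nt and share of the excess past nt 200 (y axes) against the cycloheximide dose (x axis) in unstressed cells (circles) and under oxidative stress (squares), 1 point per library, with lines through the value or, at x100, the mean of the replicates. The window mean peaks at x1/16 in both series, and the share is lowest at x1/4 and x1 in unstressed cells (37.1 and 37.3%) and at x1 under oxidative stress (25.3%).

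The place of the excess was measured as the share of the excess from nt 31 to 649 that lay in the window, the rest lying between nt 31 and 200. The window holds 449 positions and that near-start part 170, so an excess spread evenly would give a share well above 50%. A share near 50% thus means more excess per nt near the start. In unstressed cells this share was 53.2% without drug, 53.9% for x1/64, 42.4% for x1/16, 37.1% for x1/4, 37.3% for x1, 46.8% for x8, and 55.1 and 52.9% for x100. Under oxidative stress it was 57.0% without drug, 50.7% for x1/64, 43.1% for x1/16, 33.8% for x1/4, 25.3% for x1, 35.1% for x8, and 51.6 and 39.0% for x100. The share was thus lowest in the middle of the dose range, while both no-drug libraries, both x1/64 libraries and 3 of the 4 x100 libraries had more than 50% of the excess past nt 200. The pooled SD of the x100 replicates was 6.39 percentage points, and the share at x1 fell below that without drug by over 2 SDs in both series. The excess of the window itself was largest at x1/16 (290 in unstressed cells and 331 under oxidative stress, in occupancy units times nt) and that of nt 31 to 200 was 394 and 437 there. Under oxidative stress the near-start excess was largest at x1/4, at 587, where the window held 299.7.

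Taken as the difference from the no-drug profile of the same stress, the occupancy that came with the drug had its midpoint, the position with as much added area before it as after it from nt 31 to 649, at nt 219 for x1/64, 160 for x1/16, 134 for x1/4, 90 for x1, 153 for x8, and 225 and 209 for x100 in unstressed cells. Under oxidative stress the midpoints were nt 172, 152, 121, 71 and 68 at the doses from x1/64 to x8, and 176 and 97 at x100. The midpoint moved toward the start codon with each dose from x1/64 to x1 in both series and lay further downstream again at x100. Of the added area, 54.3% was in the window for x1/64 in unstressed cells, 39.7% for x1/16, 31.9% for x1/4, 24.9% for x1, 40.6% for x8, and 56.4 and 52.5% for x100. Under oxidative stress these shares were 43.8, 37.8, 26.6, 8.80 and 19.7% up to x8, and 43.4 and 7.44% at x100. The oxidative x100 replicates were far apart in this measure, the second having a window mean only 0.020 above no drug.

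**Figure D2:**
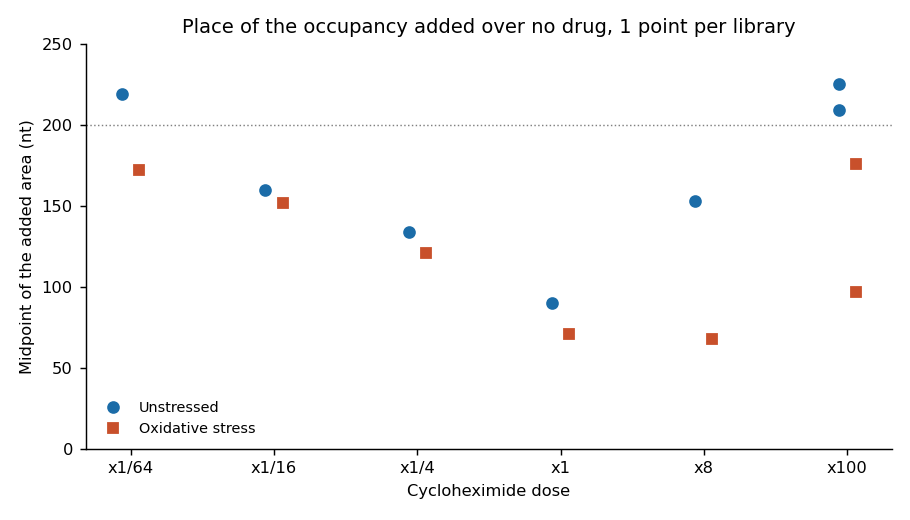
Midpoint (y axis, nt) of the occupancy added over the no-drug profile of the same stress between nt 31 and 649, by cycloheximide dose (x axis), 1 point per library (circles unstressed, squares oxidative stress). The midpoint lies at nt 219 and 172 at x1/64 and at nt 90 and 71 at x1, and the dotted line marks nt 200, where the window begins.

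A relation with the logarithm of the dose was tested over the 6 doses with drug, with the x100 replicates averaged and 4 relations in the family. For the window mean Pearson's r was -0.70 in unstressed cells (exact two-sided permutation p = 0.128, Benjamini-Hochberg adjusted 0.425) and -0.61 under oxidative stress (exact p = 0.213, adjusted 0.425), and Spearman's rho was -0.71 (exact p = 0.136, adjusted 0.272) and -0.77 (exact p = 0.103, adjusted 0.272). For the share of the excess past nt 200, r was 0.22 and -0.21 (exact p = 0.651 and 0.682, both 0.682 adjusted), and rho 0.26 and -0.26 (exact p = 0.658 for each). None passed the threshold of 0.05. Without x1/64 and x100, the doses farthest from the median, r over the remaining 4 doses was -0.87 and -0.85 for the window mean and 0.46 and -0.49 for the share. In unstressed cells these 4 doses are also those of primer set 1, and within primer set 2 under oxidative stress (x1/64, x1, x8 and x100) r was -0.78 for the window mean and -0.22 for the share.

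Drug at x1 against none was the comparison that the usual protocol rests on, and in the window it came to little in any of the 3 states. The window mean was 1.26 with the drug and 1.16 without in unstressed cells, or 1.08-fold. With peroxide it was 1.35 with the drug and 1.27 without (1.06-fold). Heat-shocked cells had 1.27 with it and 1.31 without (0.969-fold). None of these exceeded the replicate spread, nor did the upstream, middle or downstream segment alone. The mean from nt 31 to 200 was 1.57-fold, 2.42-fold and 2.22-fold higher with the drug in the same order, each larger than the replicate spread. The x1 drug profile was above the no-drug profile at 448 of 449 positions in unstressed cells, at 445 under oxidative stress and at 72 under heat shock. These counts rest on single libraries, were not taken over the whole profile, and add no evidence to the ratios. Divided by its mean from nt 31 to its end in place of the downstream span, a scaling that takes in the near-start region, the window with drug was 0.934, 0.791 and 0.772 of that without, the last pair larger than the replicate spread on that scale.

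Under heat shock at x1, the window held 22.4% of the excess from nt 31 to 649, the lowest share of the 23 libraries, against 58.9% without drug. The occupancy that the drug added had its midpoint at nt 63, and the window as a whole lay 0.041 below the no-drug profile. The x1 window under heat shock was 1.01-fold that of unstressed cells and 0.946-fold that of oxidative stress at x1, while its mean from nt 31 to 200 was 1.63-fold and 0.948-fold. The heat shock libraries had 3.49 M reads without drug and 2.88 M with it, the fewest long genes above 30 RPKM (924 and 720), and the most RPKM in the top 10 genes (37.7 and 38.4%). The part of these in the result was not tested.

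Oxidative stress was set against unstressed cells at each of 7 doses, to see whether the stress itself moves the profile. The ratio of the window means was 1.09 without drug, 0.978 for x1/64, 1.06 for x1/16, 1.13 for x1/4, 1.07 for x1, 1.08 for x8 and 1.01 for x100. Stressed cells were thus higher at 6 of 7 doses, with a mean log2 ratio of 0.082 ± 0.072 (SD, n = 7 doses), or 1.06-fold. The exact two-sided sign-flip permutation test gave p = 0.0469, and 0.0781 after Benjamini-Hochberg adjustment over the 5 measures tested (the window, its 3 segments and the slope), so the difference did not pass. The direction turned, to a mean log2 ratio of -0.068, when profiles were divided by their mean from nt 31 on. The libraries at x1 and x8 differed in primer set between the stresses, and over the other 5 doses the mean log2 ratio was 0.072 (exact p = 0.188, where 5 doses cannot go below 0.0625).

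By segment, a split chosen after the data were seen, the ratio was largest at the upstream side of the window. The scaling draws ratios toward 1 at the downstream side, so this order is in part built in and does not by itself place the effect of stress. The mean log2 ratio was 0.140 ± 0.103 in the upstream segment (exact p = 0.0313), 0.054 ± 0.070 in the middle (exact p = 0.109) and 0.028 ± 0.031 in the downstream segment (exact p = 0.0625), with adjusted values of 0.0781, 0.109 and 0.0781. The largest ratio of the upstream segment was 1.22 at x1/4 and the smallest 0.992 at x1/64. The slope was steeper under stress at 7 of 7 doses, by 0.049 ± 0.040 per 100 nt (SD, n = 7 doses). Its exact p of 0.0156 is the smallest that 7 doses allow, and it came to 0.0781 after adjustment. With 5 measures in the family, 1 measure alone at that floor cannot pass 0.05, so the adjusted value does not decide the question. The difference in slope was 0.123 per 100 nt at x1/4 and 0.0038 at x1/64.

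**Figure D3:**
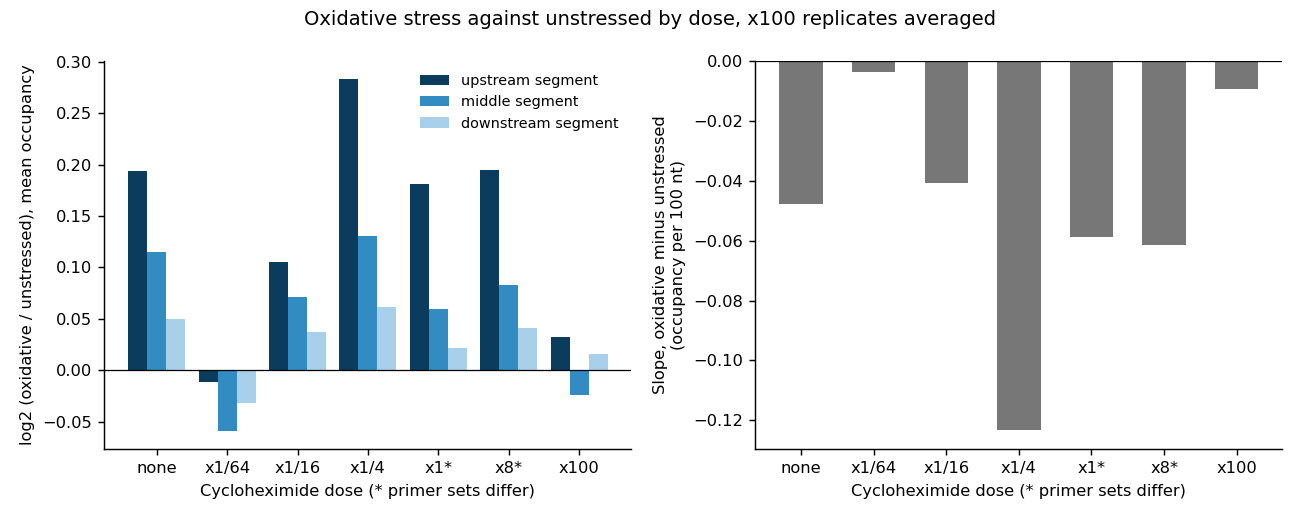
The log2 ratio of oxidative stress over unstressed mean occupancy in the upstream, middle and downstream segment of the window (left, y axis) and the difference of their slopes per 100 nt (right, y axis) by cycloheximide dose (x axes), with the x100 replicates averaged and an asterisk where the primer sets differ. The upstream bars are the tallest at every dose but x1/64, where all 3 bars lie below 0, and every slope difference is negative.

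By position, occupancy was higher under stress at all 7 doses at 60 of the 449 positions (13.4%), against 22.3% of the 1050 positions of the whole profile and 114 of the 170 positions from nt 31 to 200. Of the 60, 37 lay in the upstream segment, 0 in the middle and 23 in the downstream one, and no position of the window was lower under stress at every dose. The count rests on few libraries. Without x1/64 it was 221 of 449 (49.2%, against 46.5% of the whole profile), and without the unstressed x100 replicate 2 or the oxidative x100 replicate 1 it was 12 or 27. Neighbouring positions share footprints and are not replicates.

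At x100, the one condition with replicates, the window means under oxidative stress (1.40 and 1.29, mean 1.34 ± 0.08, SD, n = 2) overlapped those of unstressed cells (1.40 and 1.27, mean 1.33 ± 0.10, SD, n = 2). The ratio was 1.01 and the exact two-sided permutation test over the 4 libraries gave p = 1, where 0.333 is the smallest it allows. The 4 pairings of 1 stressed with 1 unstressed library gave ratios from 0.917 to 1.11. The share of the excess past nt 200 was 45.3 ± 8.9% under stress and 54.0 ± 1.5% without (SD, n = 2 each).

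Without cycloheximide in the medium, the stresses were compared by single libraries. The window mean was 1.16 without stress, 1.27 after peroxide and 1.31 after heat shock. The ratio over unstressed was 1.09 for oxidative stress and 1.13 for heat shock, both within 2 SDs, so that neither could be told from the replicate spread. Occupancy was above that of unstressed cells at 448 of 449 positions under oxidative stress and at all 449 under heat shock. Each count rests on single libraries, adds no evidence to the ratio, and was not taken over the whole profile for comparison. In the upstream segment heat shock was 1.19-fold and in the downstream segment 1.07-fold over unstressed. Both were narrowly larger than the spread of those segments (2.09 and 2.12 SDs). These libraries differ in primer set and in the transfer to new medium. The unstressed YPD library was the lowest of the 8 no-drug libraries at 442 of 449 positions, and it is also the deepest, at 27.6 M reads. The other 7 had window means of 1.26 to 1.55, complete SD among them at 1.26, 1.08-fold over unstressed YPD.

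Removing all amino acids gave the highest window of the libraries without drug. The window mean was 1.55 in SD without amino acids, 1.33 with His, Met and Leu, and 1.26 in complete SD. SD without amino acids was the highest of the 8 no-drug libraries at all 449 positions and exceeded complete SD 1.23-fold, larger than the replicate spread. The rise ran along the window, at 1.29-fold in the upstream, 1.22-fold in the middle and 1.16-fold in the downstream segment, each larger than its spread. The mean from nt 31 to 200 was 1.35-fold higher. Of the area added over complete SD, 58.2% lay in the window, with a midpoint at nt 243. Per nt, the added occupancy was higher from nt 31 to 200 (0.549) than in the longer window (0.290). The running mean stayed above 1.25 until nt 621, the furthest of the 23 libraries, against nt 407 in complete SD, and the slope was 0.192 against 0.116 per 100 nt. Scaled by the mean from nt 31 to the profile's end, the ratio was 1.03 and within the spread.

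With His, Met and Leu put back, the window was 1.05-fold over complete SD, within the replicate spread, and above it at 448 of 449 positions. The slope was 0.117 per 100 nt, next to 0.116 in complete SD. SD without amino acids stood 1.17-fold over this library, larger than the spread for the window and for the upstream and downstream segments (1.23-fold and 1.096-fold) but not for the middle one (1.16-fold). Scaled from nt 31 on, the window ratio was 1.03 and within the spread. The library without amino acids is the shallowest of all, at 1.91 M reads, and 1812 long genes passed 30 RPKM in it, against 1419 with His, Met and Leu and 1118 in complete SD. The part of depth and of the genes averaged was not tested. The library with His, Met and Leu had primer set 2 and the other pair primer set 1.

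**Figure D4:**
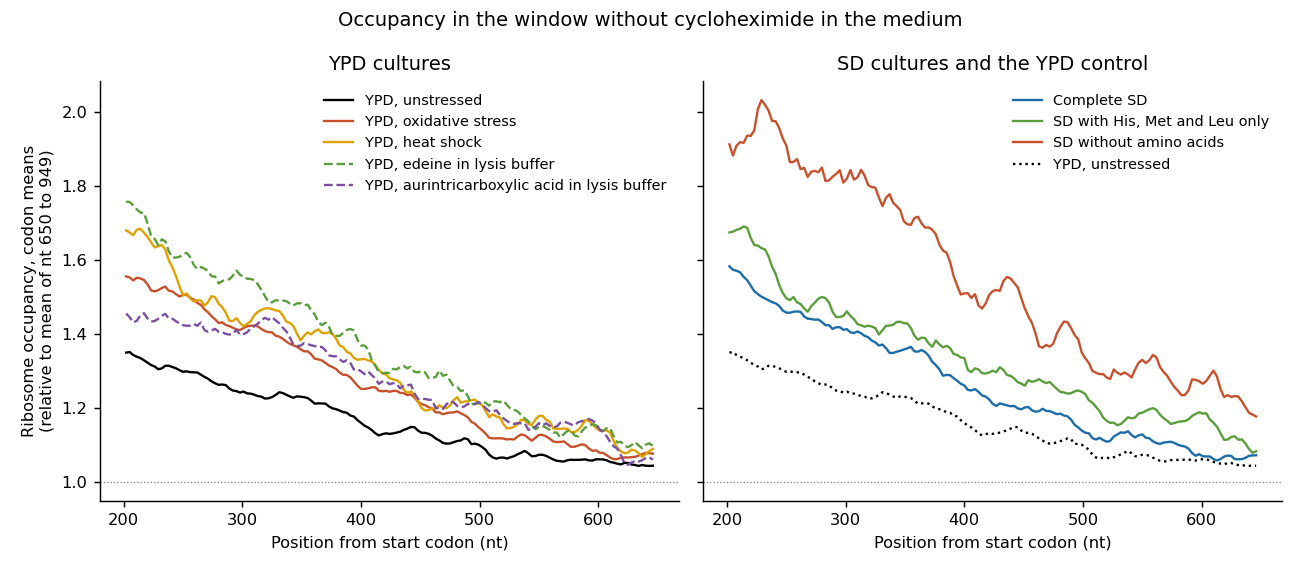
Ribosome occupancy (mean of each codon, y axis, relative to the 300-nt span after the window) against position from the start codon (x axis, nt) for the libraries without cycloheximide in the medium, 1 line per library. SD without amino acids lies above all others along the whole window (mean 1.55) and unstressed YPD lies lowest (mean 1.16).

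Cells lysed with an initiation inhibitor were unstressed YPD cells without drug in the medium. The aurintricarboxylic acid library was also prepared in another way: the lysate went on the gradient undigested, polysomes and monosomes were collected together, and RNase I was applied only after a change to buffer without the agent. In its comparisons the agent and the preparation cannot be told apart. The window mean was 1.35 with edeine and 1.28 with aurintricarboxylic acid, against 1.16 without either. Edeine was 1.17-fold over the unstressed library, larger than the replicate spread, with 1.24-fold in the upstream, 1.16-fold in the middle (within the spread) and 1.08-fold in the downstream segment. When profiles were scaled from nt 31 on, the ratio was 1.02 and within the spread. Aurintricarboxylic acid was 1.099-fold over it, within the spread for the window and narrowly beyond it for the downstream segment alone (1.07-fold, 2.04 SDs). It had the highest share of the excess past nt 200 of the 23 libraries, 61.1%, and, after unstressed YPD without either agent, the shallowest slope, 0.094 per 100 nt. The inhibitors themselves differed 1.06-fold in the window, within the spread. All 3 libraries had primer set 1, and their depths were 2.51, 6.90 and 27.6 M reads in the order edeine, aurintricarboxylic acid and neither.

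Within the slope, every library carried a 3-nt pattern. After a running mean over 33 nt was taken off, occupancy was highest at the first base of the codon in 149 of 149 codons in 23 of 23 libraries, by 2.04 to 2.95% over the running mean. The second base was on average the lowest in 22 libraries, at -1.54 to -2.27% of the running mean with drug, and the third base lay between. The exception was unstressed YPD without drug, where the second base was at -0.90% and the third at -1.10%, and where the pattern was also the weakest (3.14 percentage points from the highest to the lowest base, against 5.12 at most). The share of the remaining variance with a period of 3 nt was 63.0 to 94.7%. Libraries with and without drug, and those of either primer set, overlapped in it: the first base stood at 2.04 to 2.81% without drug and 2.30 to 2.95% with it, and at 2.04 to 2.81% with primer set 1 and 2.30 to 2.95% with primer set 2. Coverage counts whole footprints, so each position pools ribosomes at several codons.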

How the data were processed

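Ribosome footprint libraries of 23 samples were analysed, in 21 conditions. Alignment to the S288C genome was done by the authors with Bowtie 0.12.7, who made the tables with their own scripts. The deposited RPKM values are reads per kilobase, scaled to library size, and served only to recover depth, to check labels and to rebuild lists of long genes. The deposited occupancy profiles are a coverage signal, the footprint coverage averaged over single-exon genes longer than 1000 nt with RPKM above 30 and divided by the authors by a mean over 300 nt. In the files that span is nt 650 to 949, where each profile averaged 0.997, and not the end of the profile at nt 999. How genes were weighted in the average is not given in the sources used here. Gene lists per library were rebuilt from the RPKM table and gene lengths without exon counts, and 5446 of its 5564 rows held 1 locus tag of the reference. The supplement words the cutoff as rpk and counts more genes, so these lists may differ from the authors' set. The intron-containing ACT1 was left out when the 5 genes of highest median RPKM among those over 1000 nt were named.

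Depth was recovered from low RPKM values, which are whole multiples of 1 read (95.8 to 99.0% within 0.1 read), by a procedure tested on 4 simulated libraries, all within 2%. Profiles were used as deposited. For each library the window mean, the least-squares slope, the area above 1 and the position where a 30-nt running mean fell under 1.25 were computed. Stress was compared over 7 doses by exact two-sided sign-flip permutation and at x100 by exact permutation of labels. Dose relations used exact permutation p-values with Benjamini-Hochberg adjustment, and differences of single libraries were judged by 2 pooled SDs from the x100 pairs. The primer sets in the labels (12 libraries with set 1, 11 with set 2) were taken as batches. The alternatives were other scalings, shifted window limits, another level for the excess, a log2 slope, a running mean, and leaving out doses, replicates or primer sets. The window, the measures and the gene lists were chosen with earlier results of these data known. Calculations used numpy 2.4.6, scipy 1.17.1 and pandas 2.3.3 under Python 3.11.15, and plots matplotlib 3.10.9.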

Additional observations from a re-analysis of the deposited data

Results flagged for a closer look

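The ratio of x1 drug over no drug in the window lay above 1 in unstressed cells (1.08) and under oxidative stress (1.06) and below 1 under heat shock (0.969), each within the replicate spread. The log2 ratio under heat shock minus that in unstressed cells was -0.162, and minus that under oxidative stress -0.133, and these differences were not tested, since each condition is 1 library. The ratio of oxidative stress over unstressed was below 1 at x1/64, with a log2 ratio of -0.033, and above 1 without drug (0.125), again with 1 library each, and that difference was not tested either. Both x1/64 libraries are among the shallowest, at 2.00 and 2.44 M reads (M, mega).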

How the results depend on the processing

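Of 125 recomputed values, 97 were counted as unchanged. For tests this meant the same direction and side of the threshold, taken on unadjusted p-values for the stress tests. Single-library ratios had to move by less than 1 pooled SD. Position counts had to stay within a set fold limit, and 77 against 60 was inside it. Scaling each profile by its mean from nt 31 to its end, which takes the near-start region into the reference, changed the most. On the log2 scale, the stress ratio turned to -0.068 over 7 doses and to -0.060 at x100, and r of the window mean with dose in unstressed cells turned to 0.19. With it the x1 drug ratios became 0.934, 0.791 and 0.772 (unstressed, oxidative stress, heat shock), the no-drug ratios 1.03 for heat shock and 1.02 for edeine over unstressed, and 1.03 for SD without amino acids over either other SD library. The slope difference under stress kept its sign with this scaling, at -0.020 per 100 nt over 7 doses (exact sign-flip p = 0.0156, unadjusted). In the deposited scaling it was -0.037 to -0.057 per 100 nt when 1 dose was left out. Scaling by the last 100 nt or moving either window limit by 50 nt changed no direction and no side of the threshold. For the stress ratio over 7 doses (0.082), leaving out 1 dose gave 0.065 to 0.101 and leaving out 1 x100 replicate 0.071 to 0.093. It lost p under 0.05 without no drug, x1/16, x1/4, x1, x8 or x100 (exact p 0.0625 to 0.0938), without the unstressed replicate 2 (exact p = 0.0938) or the oxidative replicate 1 (exact p = 0.0781), over the 6 doses with drug (0.074) and over the 5 doses of 1 primer set (0.072), where the slope difference of -0.045 per 100 nt also did (exact p = 0.0625, the smallest 5 doses allow). The upstream, middle and downstream segments, all 3 chosen after seeing the data, gave 0.140, 0.054 and 0.028. At x100 the ratio was -0.065 to 0.086 on the log2 scale when 1 replicate was left out, turning below 0 without the unstressed replicate 2 (-0.065) or the oxidative replicate 1 (-0.050). With the replicate number as a block, the paired log2 ratio was 0.010 as before (exact p = 1). Positions higher at every dose numbered 12 to 77 without 1 x100 replicate, and 221 without x1/64, the last chosen after seeing the data. The position counts and single-library ratios carry no error beyond 2 replicate pairs. SD without amino acids, x1/64 and edeine rest on 1.91 to 2.51 M reads each, and the part of depth was not tested.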
